A study of Mus musculus with 6 samples.

Results

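The genes described here are 10 Polycomb repressors that control the Cdkn2a locus: Ezh1, Ezh2, Eed, Suz12 and Jarid2 of Polycomb repressive complex 2 (PRC2), and Bmi1, Cbx7, Cbx8, Ring1 and Rnf2 of Polycomb repressive complex 1 (PRC1). The genes were listed with earlier results of these data known. Their probes were then chosen by the RefSeq accession that the scanner files give for each probe, with no use of the measured values. This gave 13 probes for the 10 genes, out of 55681 probes and 21368 named genes on the array. Expression was measured in total RNA from the tail epidermis of wild-type C57BL/6 mice, 3 young samples and 3 aged samples, with 1 single-colour Agilent array for each. The young mice were 8 weeks old. The aged mice were 22 months old for replicate 1 and 25 months old for replicates 2 and 3. The epidermis was lifted from the dermis with EDTA, and small amounts of RNA were amplified to cDNA before labelling. The labels give neither sex nor whether each sample was a separate animal, so the p-values measure only the spread between these samples. The comparison asked whether the transcripts of the Polycomb repressors differ with age in this tissue, with the transcript of Cdkn2a read on the same arrays.

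Polycomb proteins keep genes silent through chromatin. In PRC2 the methyltransferase Ezh2 or its paralogue Ezh1, held together by Eed and Suz12, places a repressive methyl mark on histone H3; in PRC1 a Cbx protein reads that mark, and the ubiquitin ligases Ring1 and Rnf2, working with a Pcgf partner such as Bmi1, modify histone H2A. In epidermal progenitors these complexes are known for holding back the Cdkn2a locus, whose products are inhibitors of the cell cycle, and for holding back genes of the Merkel cell lineage.

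The promoters belong at the start, because Polycomb complexes in mammals are recruited mainly to stretches rich in CG dinucleotides. The 250 bases before the annotated start of each transcript were taken from RefSeq on the GRCm38.p6 build; the array's own files use mm9, so no probe position is given. Cdkn2a has 2 such windows, both on the minus strand of chromosome 4, printed here 5′ to 3′ with each CG in capitals. The first lies at chr4:89294620-89294869 and the second at chr4:89282193-89282442.
Cdkn2a upstream start: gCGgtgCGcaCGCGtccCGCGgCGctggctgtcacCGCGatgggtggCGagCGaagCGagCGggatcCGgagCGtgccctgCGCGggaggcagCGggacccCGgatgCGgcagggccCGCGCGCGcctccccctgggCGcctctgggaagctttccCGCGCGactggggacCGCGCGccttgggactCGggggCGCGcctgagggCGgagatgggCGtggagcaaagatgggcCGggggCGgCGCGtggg
Cdkn2a downstream start: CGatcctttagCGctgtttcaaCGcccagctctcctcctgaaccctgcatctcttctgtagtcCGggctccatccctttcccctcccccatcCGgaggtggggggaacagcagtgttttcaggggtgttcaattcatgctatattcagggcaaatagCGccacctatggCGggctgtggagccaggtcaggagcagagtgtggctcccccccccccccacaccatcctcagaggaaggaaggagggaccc
The upstream window held 40 CG dinucleotides, and 98.69% of the 32851 windows of this length held fewer. The downstream window held 7, and 53.7% of windows held fewer. The single window of the neighbouring gene Cdkn2b held 12. All 10 Polycomb genes had a window, 11 in all because Jarid2 has 2, and these held 12 to 37 CG with a median of 22, against a median of 6 and quartiles of 2 and 16 over all windows. Suz12 held the most (37) and Eed the fewest (12). The count describes letters in a window and shows no binding.

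Every value is a log2 signal from which the array's own 75th percentile has been taken off, so 0 is the level of a probe at the 75th percentile, and a difference is the aged mean minus the young mean in log2 units, with its standard error (SE) from limma, n = 3 and 3 arrays. No conclusion is drawn from the level of one probe against that of another; within-array differences between paralogues serve only to compare their change. Of the 10 genes 9 were tested, each well above background on all 6 arrays. Cbx7 was not, since its only probe was well above background on 0 arrays.

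None of the 9 Polycomb genes passed limma's threshold, an adjusted p under 0.05 over all 25066 features tested, against a background of 0.0638% of features that did, 0.0279% higher and 0.0359% lower. Their differences ran from -0.28 for Jarid2 to 0.44 for Cbx8, with 7 above 0 and 2 below. The median was 0.24, beside 0.04 over all features and 0.09 over the 14135 named genes, and 63.6% of those genes also had a difference above 0. At an unadjusted p under 0.05, 3 of the 9 were counted, Cbx8 and Rnf2 higher and Jarid2 lower, where 18.4% of all features met that rule, 9.81% higher and 8.55% lower. The count was 1 when any single array was left out; blocking on replicate number made it 2. In 5 of the 9 genes the aged and young arrays did not overlap, 4 of them higher in aged (Ezh1, Bmi1, Cbx8 and Rnf2) and 1 lower (Jarid2), where 26.7% of all features showed no overlap, 16.6% higher and 10.1% lower. Of the 14135 named genes, 2755 were free of overlap higher in aged and 1058 lower, and 1607 had an unadjusted limma p under 0.05 higher and 891 lower. With only 9 Polycomb genes, 1 more or fewer moves their share widely, and no test of the list was made.

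**Figure D1:**
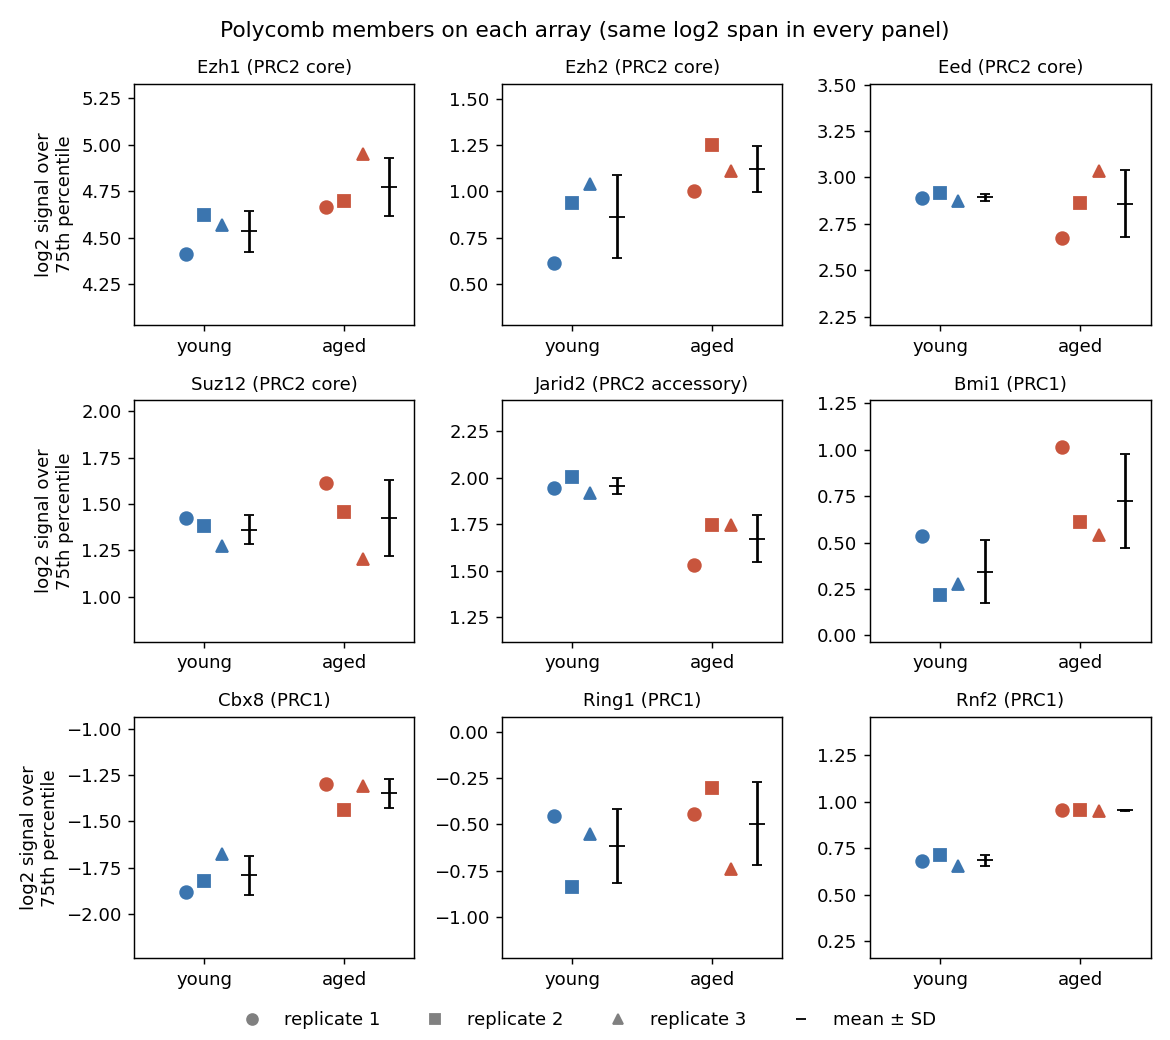
Log2 signal over the array's 75th percentile (vertical axis) of the 9 Polycomb genes tested, 1 panel a gene, with young arrays in blue and aged arrays in red. Symbols mark the replicate number, the black cross and bar give the group mean ± SD (n = 3), and every panel spans the same number of log2 units. The aged points lie above all young points for Ezh1, Bmi1, Cbx8 and Rnf2, below them for Jarid2, and neither wholly above nor wholly below them for the other 4 genes.

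In PRC2, the transcript of Ezh2, the methyltransferase linked to dividing cells, measured 0.61, 0.94 and 1.04 on young replicates 1, 2 and 3 and 1.00, 1.25 and 1.11 on aged replicates 1, 2 and 3. Young replicate 1 was the lowest array, and the groups overlapped, since aged replicate 1 lay below young replicate 3. The difference was 0.26 ± 0.15 (SE), a 1.19-fold ratio with a 95% interval from 0.922 to 1.55, and limma's adjusted p was 0.41. Against young replicate 3 alone, the only young array in the slide row that holds the aged arrays, the difference was 0.08.

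Ezh1, the paralogue found also in cells that have stopped dividing, was measured by 3 probes. The brightest read 4.41, 4.62 and 4.57 on the young arrays and 4.67, 4.70 and 4.95 on the aged arrays. Every aged array was above every young array, though aged replicate 1 cleared young replicate 2 by little. The difference was 0.24 ± 0.13 (SE), 1.18-fold with an interval from 0.945 to 1.47, and the adjusted p was 0.38 in limma. The second probe had a difference of 0.29 with no overlap either. The third and dimmest, at -3.36 to -2.85 on the young arrays and -3.25 to -2.92 on the aged arrays, had a difference of -0.07 and overlapping groups. Which transcripts the probes read is not given in the files.

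The relation of the paralogues to each other was taken within each array, as Ezh2 minus Ezh1. It averaged -3.67 ± 0.13 (SD, n = 3) in young and -3.65 ± 0.19 (SD, n = 3) in aged epidermis, a change of 0.02. The exact two-sided permutation test gave p = 0.9, where 3 arrays against 3 cannot give less than 0.1, and an adjusted p of 0.9 over the 2 pairs tested. The sign of that change turned when young replicate 1 or aged replicate 2 was left out.

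Eed, the subunit that binds the methyl mark and stimulates the enzyme, was at 2.89, 2.91 and 2.87 on the young arrays and at 2.68, 2.86 and 3.03 on the aged arrays. The young arrays lay close together and the aged arrays spread to both sides of them. The difference was -0.03 ± 0.13 (SE), and it turned to 0.04 with arrays scaled to their medians and to 0.06 without aged replicate 1. Suz12, the scaffold subunit, read 1.43, 1.38 and 1.27 on the young arrays and 1.61, 1.46 and 1.20 on the aged arrays. Here too the aged arrays lay on both sides of the young ones, with aged replicate 1 highest for Suz12 and lowest for Eed. The difference of Suz12 was 0.06 ± 0.14 (SE), with an interval of the ratio from 0.823 to 1.33, and it was -0.03 without aged replicate 1. Limma's adjusted p was 0.91 for Eed and 0.84 for Suz12.

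Jarid2, an accessory subunit that helps to bring PRC2 to its targets, was the member whose aged values all lay below the young ones. It read 1.94, 2.01 and 1.92 on the young arrays and 1.53, 1.74 and 1.74 on the aged arrays. Aged replicate 1 was the lowest. The difference was -0.28 ± 0.12 (SE), a ratio of 0.821 with an interval from 0.677 to 0.997, at an unadjusted limma p of 0.047 and an adjusted p of 0.27. Its sign stayed negative under all 17 alternatives, from -0.36 to -0.21.

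In PRC1, Cbx8, a chromodomain protein that reads the methyl mark, had the smallest p of the 9 genes. Its probe was dim but well above background on every array, at -1.88, -1.82 and -1.67 on the young arrays and -1.30, -1.44 and -1.31 on the aged arrays. The lowest aged array stood clear of the highest young array. The difference was 0.44 ± 0.11 (SE), 1.36-fold with an interval from 1.12 to 1.65, at an unadjusted limma p of 0.0081 and an adjusted p of 0.17. By p it was feature 1197 of the 25066, so many features had a smaller one. Its adjusted p ranged from 0.088 with array weights to 0.70 with the slide row as a block, where the difference was 0.32.

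Cbx7, the chromodomain protein best known for keeping Cdkn2a silent in cultured cells, could not be compared. Its probe read -7.16, -5.41 and -6.86 on the young arrays and -5.49, -4.98 and -5.62 on the aged arrays, where the lowest probe well above background on an array lay between -5.43 and -4.45. Not being well above background gives only an upper bound on its signal, so neither a fold nor a direction is given, and a ratio of Cbx8 to Cbx7 could not be formed.

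**Figure D2:**
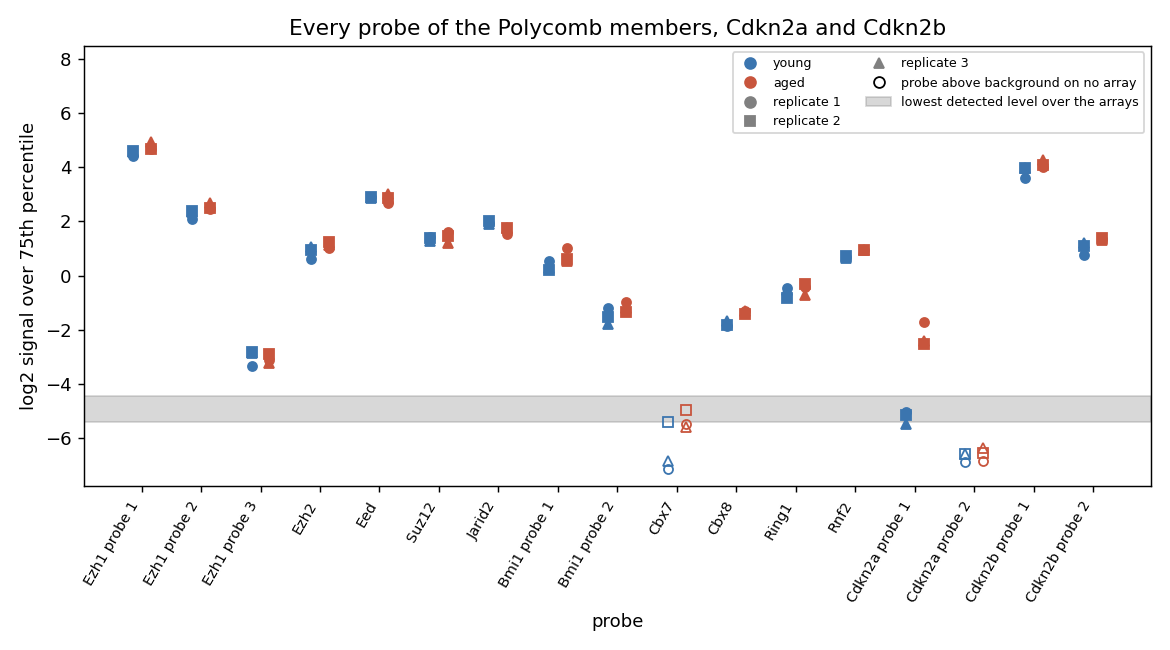
Log2 signal over the array's 75th percentile (vertical axis) for every probe of the Polycomb genes, Cdkn2a and Cdkn2b (horizontal axis), with young arrays in blue and aged arrays in red. Open symbols are probes well above background on 0 arrays, and the grey band spans the lowest detected level of the 6 arrays, from -5.43 to -4.45. Cbx7 and the second Cdkn2a probe lie within or under the band, and the first Cdkn2a probe lies above it on the aged arrays only.

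Rnf2, the main ubiquitin ligase of PRC1, was measured by 1 probe at 0.68, 0.72 and 0.66 on the young arrays and 0.95, 0.96 and 0.95 on the aged arrays. Both groups were tight, the aged group most of all, and they did not overlap. The difference was 0.27 ± 0.10 (SE), 1.21-fold with an interval from 1.02 to 1.42, at an unadjusted limma p of 0.033 and an adjusted p of 0.24. Leaving out any single array kept the difference between 0.26 and 0.28. The SE is drawn in part from the other features by limma, so it is wider than the 3 aged values alone would give.

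Ring1, its paralogue, read -0.46, -0.84 and -0.55 on the young arrays and -0.44, -0.31 and -0.74 on the aged arrays. The groups overlapped across most of their range. The difference was 0.12 ± 0.17 (SE), with an adjusted p of 0.74. Within each array Rnf2 minus Ring1 averaged 1.30 ± 0.22 (SD, n = 3) in young and 1.45 ± 0.22 (SD, n = 3) in aged epidermis, a change of 0.15, with an exact permutation p of 0.5 and an adjusted p of 0.9. An unequal change of the pair was thus not shown, in a design whose exact test cannot reach the threshold.

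Bmi1, the Pcgf partner that stimulates the ligases, had 2 probes. The brighter read 0.54, 0.22 and 0.28 on the young arrays and 1.01, 0.61 and 0.54 on the aged arrays. Replicate 1 was the highest array of both groups, and the lowest aged array lay just above the highest young array. The difference was 0.38 ± 0.17 (SE), 1.30-fold with an interval from 0.974 to 1.74, and the adjusted p was 0.30. The second probe, at -1.20, -1.53 and -1.79 on the young arrays and -0.99, -1.34 and -1.19 on the aged arrays, had a difference of 0.33 but overlapping groups. The replicates numbered 1 also stand apart in another way: the summed level of 4 Y-linked genes reached 14.6 for young replicate 1 and 14.7 for aged replicate 1, but only 0.036 to 0.326 elsewhere. Of the 5 probes of these genes, 4 were well above background on those arrays alone. The other, 1 of 2 probes of Uty, was also detected on young replicate 3, where it read -1.74, above its values of -3.63 and -2.53 on the replicates numbered 1. With both replicates numbered 1 left out, the median difference of the 9 Polycomb genes was 0.19, beside 0.08 over all features. In that fit 2 of them had an unadjusted limma p under 0.05, where 25.7% of all features did.

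The Polycomb genes can also be read by array. Set against its young mean, the median gene of the 9 stood at 0.17, 0.27 and 0.20 on aged replicates 1, 2 and 3 and between -0.02 and 0.02 on the young arrays. Over all features tested the same median was 0.00, 0.04 and 0.11 on the aged arrays. On aged replicates 1, 2 and 3 respectively 6, 7 and 6 of the 9 genes were above the highest young array, and 2 were below the lowest young array on each. The share of all features outside the young range was not taken for single aged arrays. These counts therefore have no background to be read against. The young median lies near 0 by construction, so the comparison is with the aged medians of all features.

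Around these members, none of the other subunits of both complexes passed the threshold. Their differences ran from -0.13 to 0.32 in PRC2 and from -0.32 to 0.47 in PRC1, beside -0.28 to 0.44 for the members. Of 7 other PRC2 subunits (Rbbp4, Rbbp7, Aebp2, Phf1, Mtf2, Phf19 and Epop) 6 had a difference above 0, with a median of 0.19 and a highest value of 0.32 for Phf1; 0 had an unadjusted limma p under 0.05 and 0 were free of overlap. Of 20 other PRC1 subunits 19 were named on the array and tested, with 12 above 0, 7 below, and a median of 0.06. In 5 of the 19 the groups did not overlap, all higher in aged, where 16.6% of all features did so in that direction and 26.7% in either. An unadjusted limma p under 0.05 was met by 3 of the 19, also all higher. Over all features that share was 9.81% in that direction and 18.4% in either. Of the 14135 named genes, 2755 were free of overlap and 1607 had such a p in that direction. No test of the PRC1 list was made.

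Those 3, named for their p and not as a result of the list, were Pcgf5, Scmh1 and E2f6. Pcgf5, a Pcgf partner of variant PRC1 that does not need a Cbx protein, read 2.02, 1.95 and 1.95 on the young arrays and 2.39, 2.48 and 2.48 on the aged arrays. The groups stood well apart, with a difference of 0.47 ± 0.10 (SE), beside 0.44 for Cbx8, and a limma adjusted p of 0.14. Scmh1, which associates with canonical PRC1, had a difference of 0.40 ± 0.12 (SE; adjusted p = 0.19). E2f6, a repressive E2F factor of a variant PRC1, had one of 0.30 ± 0.11 (SE; adjusted p = 0.23). Differences of other PRC1 subunits reached down to -0.32 for Phc1, whose aged arrays spread from -3.26 to -1.41.

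**Figure D3:**
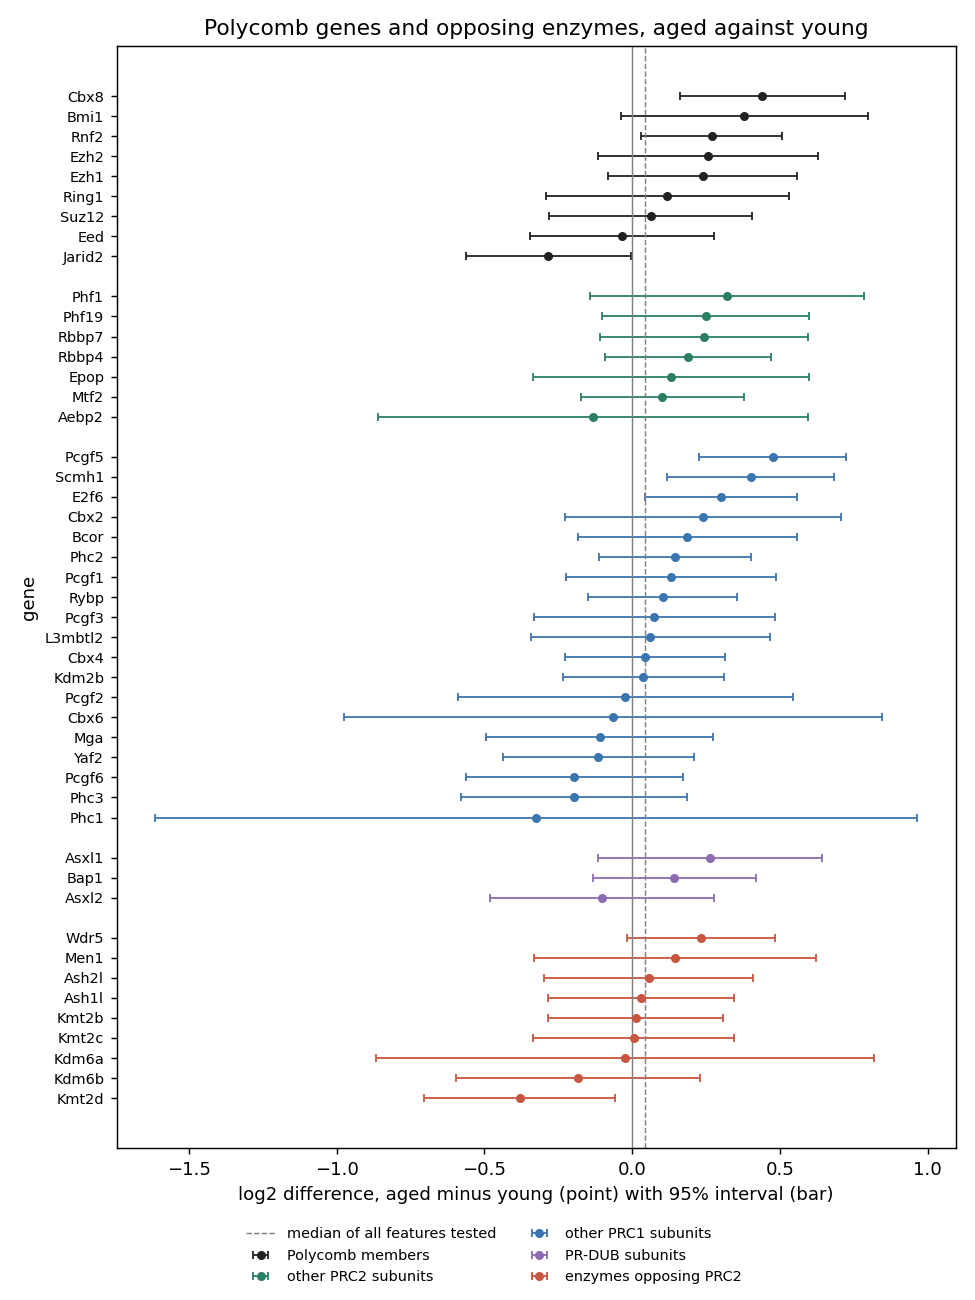
Difference in log2 units, aged minus young (horizontal axis), for the 9 Polycomb genes tested and the other genes of the pathway (vertical axis), ordered within each list. Points are limma estimates, bars are 95% intervals from 3 against 3 arrays, the dashed line is the median of all features (0.04), and colours mark the lists. Most intervals cross 0; those that do not are Cbx8, Rnf2, Jarid2, Pcgf5, Scmh1, E2f6 and Kmt2d.

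Of the enzymes that undo or oppose Polycomb repression, 3 of 4 subunits of the deubiquitinase PR-DUB were tested (Bap1, Asxl1 and Asxl2, while Asxl3 was undetected throughout), with differences from -0.10 to 0.26. Of 10 histone demethylases and methyltransferase subunits that counter PRC2, 9 were tested, 6 above 0 and 3 below, with a median of 0.01. Kmt2d, a methyltransferase that marks active enhancers, was the 1 with an unadjusted limma p under 0.05. It read -0.58, -0.32 and -0.29 on the young arrays and -0.91, -0.72 and -0.71 on the aged arrays, with no overlap, a difference of -0.38 ± 0.13 (SE) and an adjusted p of 0.23. Kdm6a, an X-linked demethylase that removes the PRC2 mark, was picked out after its values were seen: it was lowest on replicate 1 of both groups, at -0.29 and -0.45, against 0.32 to 0.59 on the other 4 arrays. These are the arrays on which all 5 Y-linked probes were detected, and the difference of Kdm6a between ages was -0.02. Its paralogue Kdm6b had a difference of -0.18 with overlapping groups.

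The locus that these repressors control was measured on the same arrays. The brighter probe of Cdkn2a read -5.05, -5.16 and -5.51 on the young arrays, where it was well above background on 0 of 3, and -1.74, -2.52 and -2.43 on the aged arrays, where it was on 3 of 3. It thus entered the fit only through the aged arrays, and its p is given as a description of a probe whose young signal has only an upper bound. The aged mean was at least 5.98-fold higher than the bound for young epidermis, which takes for each young array whichever is higher, the probe's own signal or that of the dimmest detected probe (limma adjusted p = 0.035). That fold holds for the scanner's own background subtraction only. With normexp, another background correction, the difference was 0.81 in log2 units. With the replicate number as a block the adjusted p was 0.15, and across 16 alternatives, 6 of which kept the call, it ran from 0.0033 to 0.39. Leaving out any one of young replicates 1, 2 and 3 or aged replicates 2 and 3 ended the call (adjusted p from 0.11 to 0.19). The second Cdkn2a probe was well above background on 0 arrays, and the files do not say which of the 2 starts printed above either probe belongs to.

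Cdkn2b, the neighbouring inhibitor gene under the same Polycomb control, read 3.62, 3.99 and 3.98 on the young arrays and 4.03, 4.10 and 4.27 on the aged arrays with its brighter probe. The groups did not overlap on this probe or on the second, but the gap was narrow on the first. The differences were 0.27 ± 0.15 (SE; limma adjusted p = 0.38) and 0.33. The first of these is of the size seen for Ezh1, Ezh2 and Rnf2.

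Other regulators of the locus were tested as a list of 8. They had 5 differences above 0 and 3 below, with a median of 0.23, and 0 had an unadjusted limma p under 0.05. Of 6 Merkel lineage genes that PRC2 holds back in epidermis, only the keratins Krt8 and Krt18 could be tested, and neither on all arrays. Krt8 was detected on 1 young array and 2 aged arrays with overlapping groups, and Krt18 on 3 young and 2 aged ones with all aged values below the young ones (limma adjusted p = 0.99 and 0.29), so no size is given. Isl1, Krt20 and Sox2 were not well above background on any array, young or aged. So a gain of these 3 transcripts in aged epidermis was not detectable here. Atoh1, the remaining gene of the list, was well above background on some array but did not pass the filter, so it was not compared.

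For the members named by likeness, the 3 genes with the highest Pearson correlation over the 6 arrays, out of 14134, were Adat3, Wipf3 and Hs2st1 for Ezh2 (r from 0.982 to 0.992), Dusp13, 2610008E11Rik and Dcaf12 for Ezh1 (0.988 to 0.997), and E130311K13Rik, Eral1 and Hsd17b4 for Bmi1 (0.996 to 0.999). With 6 arrays in 2 groups such values are common: 70 genes exceeded 0.9 with Ezh2, 371 with Ezh1 and 951 with Bmi1. They are a description only and carry no test. Cbx7 has none, as its probe gave no measured pattern.

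Marker transcripts of several cell types also differed between the arrays, and in bulk epidermis fewer cells of a type cannot be told apart from less RNA per cell. The keratinocyte genes Krt5, Krt14, Krt10, Krt1 and Trp63 were detected, as the tissue label has it, with a summed linear level of 1625 to 1773 times the 75th percentile in young and 1697 to 1772 in aged samples. All 12 proliferation genes had differences above 0, with a median of 0.46, 7 free of overlap and 7 at an unadjusted p under 0.05, of which Aurka (0.72), Plk1 (0.57), Cdk1 (0.65) and Ccnb1 (0.60) were first by p; 0 passed the threshold. Over all features 16.6% were free of overlap and 9.81% at such a p in that direction. For the 14135 named genes these were 2755 and 1607 genes. The sum of the proliferation genes was 47.3 to 64.0 in young and 66.1 to 75.9 in aged arrays. Young replicate 1 was the highest young array for these genes and the lowest array for Ezh2, whose difference of 0.26 was also above 0. That array was picked out after the values were seen, and how Ezh2 follows these genes was not tested. All 9 hair shaft and inner root sheath genes had differences below 0 (Krt72, Padi3, Krt81 and Tchh first by p, at -2.90, -4.06, -2.76 and -3.32), 0 past the threshold, with sums of 755 to 1102 in young and 18.4 to 583 in aged arrays. Melanocyte genes (5 of 5 below 0, 0 past the threshold, Kit, Tyrp1, Mlana and Pmel first by p at -2.10, -1.59, -1.93 and -1.52) summed to 9.21 to 13.0 and 2.62 to 10.2, and Langerhans cell genes (3 of 4 tested below 0, 0 past) to 9.16 to 13.1 and 3.16 to 11.53. Fibroblast genes summed to 5.34 to 8.16 and 2.53 to 20.6, with Lum undetected and 3 of 4 tested below 0. The other, Dcn, was at 0.21 with overlapping groups. It read 4.34 on aged replicate 1, the array of the highest sum, and 1.19 to 2.84 on the other arrays. Col1a2 was at -2.08 short of the threshold, and Col1a1 and Col3a1 fell past it. Col1a1 fell by 2.95 with 2 of 3 aged arrays well above background. Col3a1 was at least 5.14-fold lower, with 0 of 3, so that it entered the fit only through the young arrays. Neither Col1a1 nor Col3a1 passed with the replicate number as a block, under which 0 genes did in limma (2710 at an unadjusted p under 0.05). T cell genes summed to 2.40 to 3.66 and 3.97 to 10.3, with Cd3d undetected, 0 of 3 past the threshold, and differences of 1.60 for Thy1, which other cells also express, 0.07 for Cd3e and -0.97 for Cd3g, the last detected on 3 of 6 arrays. Endothelial genes summed to 5.13 to 6.04 and 4.64 to 5.14, with Cdh5 and Tie1 undetected and 0 of 3 past it. What part these shifts have in the values of the Polycomb genes was not tested.

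**Figure D4:**
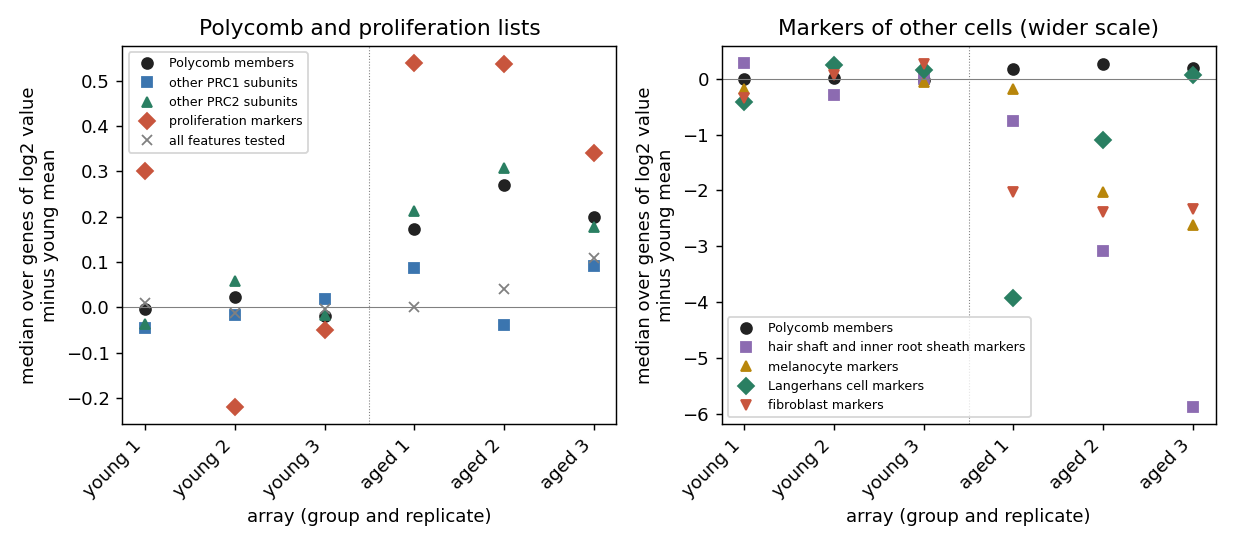
Median over the genes of a list of the log2 value minus the young mean (vertical axis) on each of the 6 arrays (horizontal axis), for Polycomb and proliferation lists on the left and for markers of other cells on the right, where the scale is wider; the dotted line parts young from aged arrays. The Polycomb genes sit at 0.17 to 0.27 on the aged arrays and the proliferation genes at 0.34 to 0.54, while the hair genes range from -0.75 to -5.87.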

How the data were processed

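The members and gene lists were chosen with earlier results of these data known. Per the file headers, the deposited values are spot intensity after background subtraction and detrending by Feature Extraction 11.5.1.1, and all arrays lay on 1 slide read in 1 scan. The authors' table holds log2 values of 33870 probes, found to match the scanner values (r of at least 0.9999) after 75th percentile scaling and centring of each probe; its column medians ran from -0.021 to 0.071. The 75th percentile of the signal was 230.2 to 300.3 units, 50.02% to 54.38% of probes were well above background, and 0 spots were saturated; precision is limited by there being 6 arrays. Here log2 intensity minus the 75th percentile was used, without the 116 to 170 outlier spots per array and without control spots, and spots of a probe were averaged. RefSeq accessions named 28331 of 55681 probes through the GRCm38.p6 table. Probes well above background on at least 3 of 6 arrays were tested, the brightest standing for its gene, which left 25066 features. R 4.3.3 with limma 3.58.1 (lmFit, eBayes, two-sided, Benjamini-Hochberg) compared the groups and was tested on simulated data. The rule named all members, the Ink4 genes and, of each other list, up to 4 genes at an unadjusted p under 0.05. Other genes named with values (Phf1, Phc1, Kdm6a, Kdm6b, Dcn, the remaining T cell genes and Merkel keratins) were chosen after their values were seen.

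The titles number the samples 1 to 3 in both groups. Over features, a sample's departure from its group mean correlated with that of its namesake at r of 0.414, 0.259 and 0.102, each above 0.1. No correlation was taken between samples of unlike number. The 3 departures within a group sum to 0, so the 3 values are not independent. The numbers may pair the samples, although the labels name nothing they share. The SEs, intervals and p-values given ignore such a pairing unless the block is named. A limma fit with the replicate number as a block was run as an alternative. The exact permutation tests ignore the pairing too and had no paired alternative. Alternatives changed the scaling, background correction, value table, filter, probe choice, block, array weights (limma's gene-by-gene method) and arrays included.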

Additional observations from a re-analysis of the deposited data

How the results depend on the processing

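Of 14135 genes tested 11 passed the threshold (6 higher, 5 lower; 2498 at an unadjusted p under 0.05). The count was 7 with quantile normalization, 21 with arrays scaled to their medians (15 higher, 6 lower), 15 with normexp (11 higher, 4 lower), 3 with probes detected on all 6 arrays, 1 without a filter, 766 with array weights, and 0 with slide row as a block (858 at an unadjusted p under 0.05 in limma). Under the replicate block limma called 0 genes, with 2710 at an unadjusted p under 0.05; it ended the calls of Cdkn2a, Col1a1 and Col3a1 and changed no other call given. Leaving out arrays gave 0 to 809, the highest without aged replicate 1, and 215 without replicate 1 of both groups. The Polycomb genes past the threshold stayed at 0 under all 17 alternatives in limma. Where limma called 0 genes of any kind, as with either block, that count could only be 0. At an unadjusted limma p under 0.05 there were 0 to 5. They were 5 with normexp (18.95% of all features), 1 without a filter (9.72%) and 0 with the slide row (6.95%). With arrays left out they were 1 to 2, where the share of all features was 10.3% to 25.7%. Polycomb genes without overlap, 5 in the main setting, were 3 with quantile normalization (25.3% of all features) and 3 with the mean of all probes (26.3%). With arrays left out they were 5 to 8, the 8 without aged replicate 3. There the share of all features without overlap was 36.9% against 26.7%. Fewer arrays raise that share, to 62.3% without both replicates numbered 1. The median difference of the Polycomb genes, 0.24, was 0.15 with quantile normalization, with the mean of all probes and with the slide row. It was 0.32 with median scaling and 0.18 to 0.28 with arrays left out. Signs turned for Eed (0.042 with median scaling, and -0.123 to 0.057 with arrays left out, above 0 without aged replicate 1), for Suz12 (-0.032 to 0.173, below 0 without aged replicate 1) and for the change of Ezh2 minus Ezh1 (-0.083 to 0.110 with arrays left out). The difference of Cdkn2a was 0.81 with normexp (adjusted p = 0.077), and with all 6 arrays required it was not tested. The causes were not tested. Slide row 1 holds young replicates 1 and 2 only, so that block compares the aged arrays with young replicate 3 alone. The signal over background limits Cbx7, the second Cdkn2a probe and most Merkel genes.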
